A study of Mus musculus with 131 samples.

Results

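The deposited amplicon table counts sequencing reads over the Gjb2 35delG site, and 40 of its 65 amplicons carried the 35delG allele in more than 90% of their reads. These 40 amplicons were selected on that measured share, and the reads among them that still read as wild type (WT) are described here, tissue by tissue. Each amplicon is named by a tissue (brain, heart, liver, testis or tail) and by a number or the code 35G, called a set below. The 40 amplicons were the complete 5 tissues of 8 sets, namely 5 to 11 and 35G. No label says that a set is a single animal or which animals the sets were.

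The 6 amplicon samples of the series are labelled as genomic DNA of C57BL/6J mice with the genetic modification Gjb2 35delG at P42, from brain, liver, heart and tail, with 2 from testis. Per the design text, DNA came from wild-type mice and from homozygous 35delG mice made by diploid complementation, in which embryonic stem cells are injected into diploid host embryos. The host embryo keeps its own cells, so a mouse made this way can hold cells of both sources. The table has 6 blocks of up to 12 rows, each block mixes tissues, and no label ties a block or a row to one of the 6 samples. The tissue was therefore taken from the row name alone, and DNA amplicons hold no expression values against which a tissue name could be checked.

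Gjb2 encodes connexin 26, a subunit of the gap junction channels that join supporting cells of the cochlea. Loss of connexin 26 interrupts the exchange of ions and small molecules between these cells and causes deafness. The 35delG allele, known from inherited human deafness, removes a guanine early in the coding sequence and shifts the reading frame, so that no full connexin 26 is made from it. The gene lies on chromosome 14, from 57098602 to 57104702 in GRCm38. A read share measures alleles in tissue DNA, and the source of the WT reads was not tested.

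The 40 amplicons held 373269 to 727021 reads each, with a median of 473936. Their 35delG share ran from 94.3% to 99.8%, with a median of 99.5%, and no amplicon of the table lay between 10% and 90%. The member closest to the threshold was brain of set 6 at 94.3%, followed by heart of set 6 at 97.3%. The highest amplicon outside the rule was testis of set 2 at 0.601%. These shares chose the members and carry no test.

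The WT share, WT reads as a percent of all reads of an amplicon, had a median of 0.342% and spanned 0.0153% to 5.53%. The lowest value rested on 74 WT reads of 482974 and the highest on 21074 of 381215. In 10 of the 40 amplicons the WT share was above 1%. Heart and testis gave 3 each, brain and liver 2 each, and tail gave 0 of its 8.

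Set 35G held 0.232% WT reads in brain and 0.121% in heart, then 1.77% in liver, 0.403% in testis and 0.0153% in tail. Liver was the high tissue and tail the low one, a ratio of 115 between them, the widest of the 8 sets. Set 5 held 0.288% in brain and 1.55% in heart, then 0.616% in liver, 0.189% in testis and 0.358% in tail. Here heart was highest and testis lowest, and tail exceeded brain and testis. Set 6 held 5.53% in brain (Wilson 95% interval 5.46% to 5.60%) and 2.48% in heart, then 0.326% in liver, 0.291% in testis and 0.104% in tail. Brain and heart of this set were the highest amplicons of the whole group of 40, while its other tissues lay below the median of all members.

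Set 7 held 0.122% in brain and 0.0700% in heart, then 0.252% in liver, 1.50% in testis and 0.0797% in tail. Testis alone passed 1% in it. Set 8 held 1.08% in brain and 1.69% in heart, then 1.72% in liver, 0.0739% in testis and 0.245% in tail. It was the set with the most tissues above 1%, with 3, and its testis was the lowest of all 8 testis amplicons. Set 9 held 0.582% in brain and 0.172% in heart, then 0.565% in liver, 1.93% in testis and 0.258% in tail. Its testis was the highest of that tissue.

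Set 10 held 0.503% in brain and 0.125% in heart, then 0.175% in liver, 0.622% in testis and 0.0559% in tail. No tissue of set 10 passed 1%. Set 11 held 0.112% in brain and 0.692% in heart, then 0.636% in liver, 1.86% in testis and 0.439% in tail. Its brain was the lowest of that tissue and its tail the highest of that tissue. The tissue with the highest WT share thus changed from set to set. It was testis in 4 sets, liver in 2, brain in 1 and heart in 1.

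**Figure D1:**
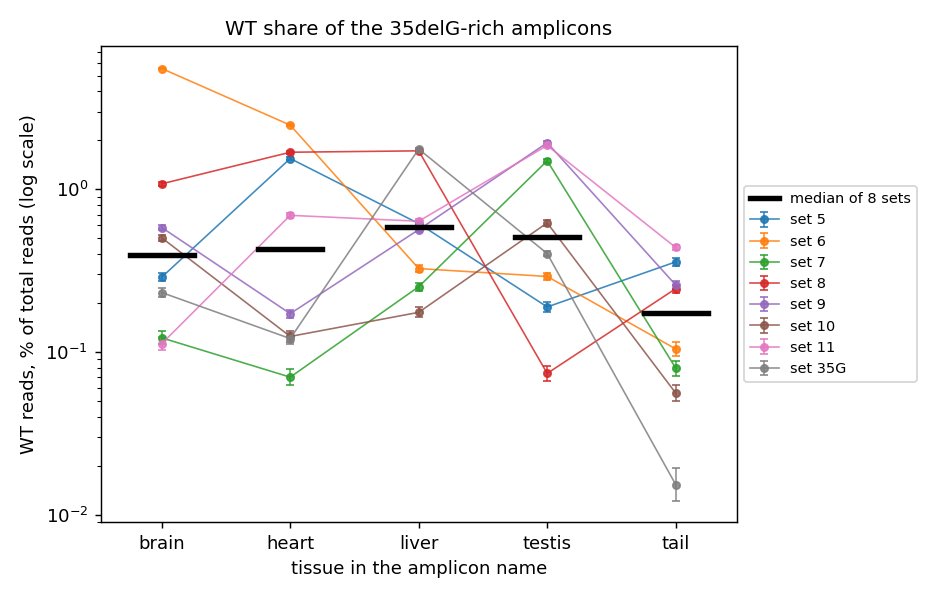
WT reads as a percent of total reads (log scale) in the 40 amplicons by tissue, with a line for each of the 8 sets, Wilson 95% intervals as error bars and black bars for the median of a tissue. The lines cross between tissues, and the median is lowest in tail at 0.175%.

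Counting error was small beside these differences. Of the 80 pairs of tissues within a set, 77 had Wilson 95% intervals that did not overlap. The intervals cover counting error only, since reads of amplified DNA are not independent molecules. On the log2 scale the SD of the WT share over the 40 amplicons was 1.80, against 0.0512 from counting alone. Of the sum of squares of the log2 share, 19.3% lay between tissues, 15.9% between sets and 64.8% in neither. Tissues and sets take up some of it by chance alone, and the part between sets was not tested. Each amplicon was measured a single time, so technical and biological parts of that remainder cannot be told apart.

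By median over the 8 sets, liver stood first with 0.590% WT reads (0.175% to 1.77%), then testis with 0.512% (0.0739% to 1.93%). Heart followed with 0.432% (0.0700% to 2.48%), brain with 0.396% (0.112% to 5.53%) and tail with 0.175% (0.0153% to 0.439%). The ranges of all 5 tissues overlapped. Of amplicons from other tissues, 17 of 32 exceeded the highest tail amplicon, 4 in brain, 4 in heart, 5 in liver and 4 in testis.

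Tissues were then compared within sets. An exact Friedman test, which ranks the 5 tissues within each set, gave a chi-square of 7.70 and p = 0.0999 over the 8 sets, so a difference between tissues did not pass 0.05. Without set 5 the same exact test gave p = 0.0334, and without any other single set it gave 0.0882 to 0.284. Tail was among the lowest 2 tissues in 7 of 8 sets and the highest in none, with a mean rank of 1.75 where 1 is the lowest. Liver was never among the lowest 2 and had a mean rank of 3.75. Testis had a mean rank of 3.50, brain 3.13 and heart 2.88.

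The 10 pairs of tissues were tested with an exact two-sided sign-flip permutation test of the within-set log2 ratio. P-values were adjusted by Benjamini-Hochberg over 20 tests, 10 for WT and 10 for Other reads. Liver exceeded tail in 8 of 8 sets, by 1.45-fold to 115-fold. Its mean log2 ratio of tail over liver was -2.13 ± 2.03 (SD, n = 8), which is 4.39-fold more in liver, with an exact p = 0.0078 and an adjusted p = 0.156. The former is the smallest p that 8 sets can give, and a single pair at that value cannot pass the adjustment over 20 tests. Without set 35G the fold was 2.75.

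Heart exceeded tail in 6 of 8 sets, 3.22-fold by geometric mean, with an exact p = 0.0391 and an adjusted p = 0.273. Testis exceeded tail in 6 sets, 4.08-fold, with an exact p = 0.0547 and the same adjusted p. Brain exceeded tail in 6 sets, 3.50-fold, with an exact p = 0.0859 and an adjusted p = 0.313. The SD of the log2 ratio was 1.75 for heart, 2.33 for testis and 2.46 for brain. These averages moved with single sets. The brain ratio was 2.38-fold without set 6 and 5.09-fold without set 11, and the testis ratio was 3.13-fold without set 35G and 5.93-fold without set 8. The heart ratio was 2.42-fold without set 6 and 4.03-fold without set 9.

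Among brain, heart, liver and testis no order could be told from the replicate spread. The 6 mean log2 ratios lay between -0.12 and 0.45, with SDs of 1.82 to 3.39 and an adjusted p of 0.922 in each exact test. The widest spread was between heart and testis, where testis was higher in 5 sets and lower in 3. No pair of the 10 passed 0.05 after adjustment. At an unadjusted p under 0.05 there were 2 pairs, liver with tail and heart with tail. A p above the threshold does not show that these tissues held equal shares. With these SDs, differences of this size were not resolved by 8 sets.

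**Figure D2:**
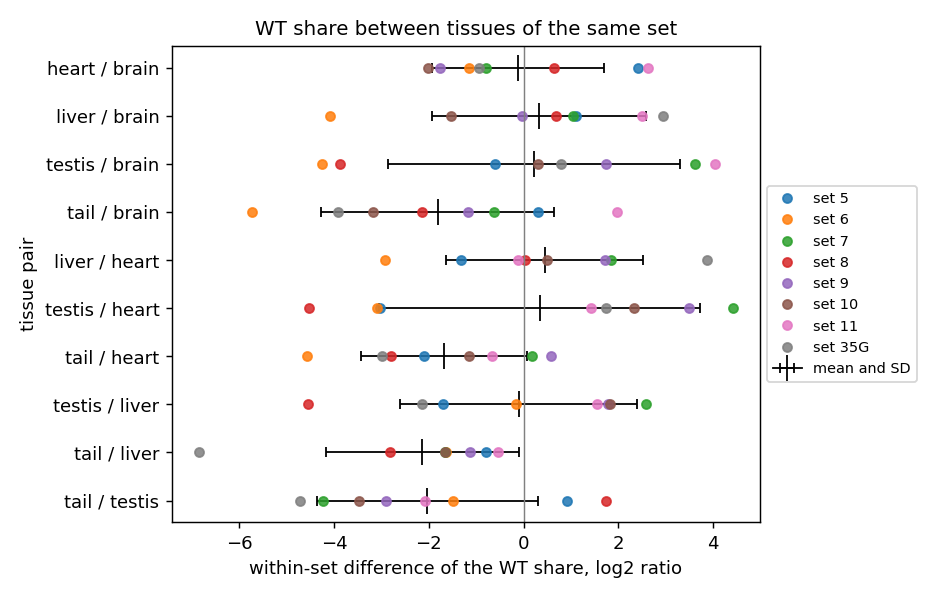
Log2 ratio of the WT share between the tissues of a set for each of the 10 tissue pairs, with a point per set and the mean ± SD over 8 sets in black. All 8 points lie below 0 for tail over liver, and points lie on both sides of 0 for the other pairs.

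The 25 amplicons outside the rule (sets 1 to 4 and 12) were WT in nearly all reads, and 35delG reads were their minor class. These are a different read class from the WT reads of the members. Whether both classes arise at the same rate was not tested, so the shares are set side by side as a description. The 35delG share of these 25 amplicons had a median of 0.263% and spanned 0.0185% to 0.601%. Of the 40 members, 14 had a WT share above this range, 25 inside it and 1, tail of set 35G, below it. The top of this range came from block 1, which held no member. In block 5 the 7 members held 0.0559% to 1.86% WT reads, above the 0.0185% to 0.0304% 35delG reads of set 12. In block 2 the 4 members held 0.189% to 1.55%, and the 8 amplicons outside the rule 0.225% to 0.328%. The other 29 members lay in blocks with no amplicon outside the rule, so no such 35delG share was measured there. Over all 25 amplicons outside the rule, the tissue medians of the 35delG share were 0.263% in brain and 0.238% in heart. They were 0.310% in liver, 0.289% in testis and 0.253% in tail. Both kinds of amplicon were split by the measured allele, so they were not tested against each other.

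The minor class of these 25 amplicons differed along the table. In the first block, rows 1 to 8 held 0.238% to 0.317% 35delG reads, and rows 9 to 12 held 0.533% to 0.601%. The step fell between liver and testis of set 2, inside a set, and the 4 rows after it were testis and tail of set 2 and brain and heart of set 3. In the second block the level was 0.225% to 0.328%. Set 12, in the fifth block, lay at 0.0185% to 0.0304%. The 7 other rows of that block were nearly all 35delG. No other set of the 25 amplicons stood in that block, so set and block cannot be told apart there. The source of the minor class in these amplicons was not tested.

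The rows run in the order brain, heart, liver, testis and tail within every set. With up to 12 rows to a block, the place of a tissue in its block shifted from set to set: tail stood at places 1 to 11, with a median of 5.5, and brain at 1 to 12, with a median of 6. Across the 40 members the Spearman correlation of the WT share was -0.105 with the place in the block, -0.108 with the row of the table and 0.0302 with the read total. These are descriptions over amplicons that share sets and blocks. Between the 5 blocks that hold members lay 3.85% of the sum of squares of the log2 WT share, which was not tested.

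The 29 members in blocks without WT amplicons had a median WT share of 0.291% (0.0153% to 5.53%). The 11 members that shared a block with WT amplicons had 0.616% (0.0559% to 1.86%), and both ranges overlapped widely. The 2 members directly beside a WT amplicon, brain of set 5 and tail of set 11, held 0.288% and 0.439%. Leaving out their sets, the exact Friedman test over 6 sets gave p = 0.0265. With 6 sets a pair cannot go below an unadjusted p of 0.0312.

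Members of the same set in next rows differed by a median of 3.42-fold in WT share over 29 pairs, and those of the same set and block further apart by 3.90-fold over 37 pairs. Members of different sets in next rows differed by 2.19-fold over 6 pairs, each a tail followed by a brain. Those of different sets in the same block but not in next rows differed by 3.66-fold over 97 pairs. Amplicons of the same tissue in different blocks differed by 3.19-fold over 120 pairs, and those of different tissues in different blocks by 3.36-fold over 491 pairs. These pairs share amplicons and carry no test.

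In 5 sets (6, 7, 9, 11 and 35G) all rows lay within 1 block. Over them the exact Friedman test gave p = 0.0731, liver exceeded tail in 5 of 5, and tail was among the lowest 2 tissues in 5 of 5. With 5 sets the sign-flip test cannot go below 0.0625. Tail followed testis in the table in every set, so the row order within a set and the tissue cannot be told apart.

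**Figure D3:**
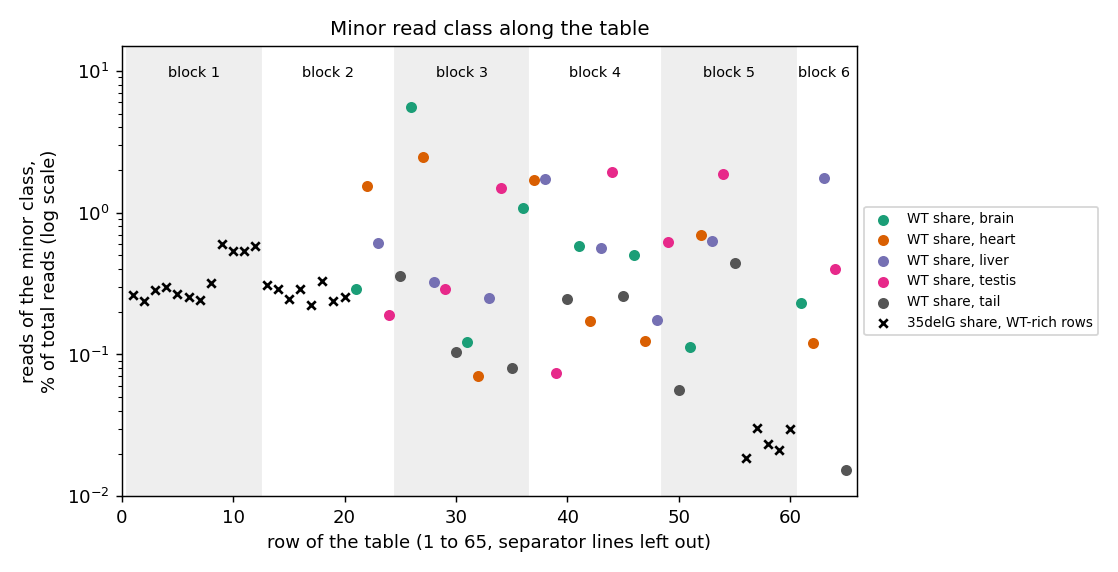
Minor read class as a percent of total reads (log scale) along the 65 rows of the table, with the 6 blocks shaded in turn: WT reads in the 40 members, coloured by tissue, and 35delG reads in the 25 WT-rich amplicons as crosses. Crosses step up within block 1 and lie between 0.0185% and 0.0304% in block 5, while the coloured points scatter in blocks 2 to 6.

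Other reads, those the authors classed as neither allele, made up 0.130% to 0.250% of the 40 members, with a median of 0.167%. By tissue the median was 0.186% in brain (0.142% to 0.216%), 0.172% in heart (0.135% to 0.226%) and 0.177% in liver (0.130% to 0.250%). It was 0.171% in testis (0.160% to 0.201%) and 0.153% in tail (0.139% to 0.201%). The SD on the log2 scale was 0.216, far narrower than the 1.80 of the WT share. Across the 40 members the Spearman correlation between the WT and the Other share was 0.220.

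No difference between tissues was detected in Other reads. The exact Friedman test over 8 sets gave a chi-square of 3.10 and p = 0.571. Over all 13 sets, whatever their allele, a permutation test of the same statistic gave p = 0.568. No tissue pair passed after adjustment, and 1, tail with testis, had an unadjusted exact p under 0.05 (p = 0.0469, adjusted p = 0.273). Its mean log2 ratio of tail over testis was -0.17 ± 0.18 (SD, n = 8), and testis was higher in 6 sets. Tail was the lowest tissue in 5 of 8 sets for Other reads, and the highest in 1, set 35G.

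The Other share differed between blocks. Split by block alone, 42.2% of its sum of squares lay between blocks. Split by set and tissue instead, 34.4% lay between sets, 10.5% between tissues and 55.1% in neither. These splits overlap, so their parts do not add up. The 4 members in the second block were all of set 5 (brain, heart, liver and testis) and held 0.201% to 0.250%, so set and block cannot be told apart there. The 36 members of other blocks held 0.130% to 0.210%, with liver of set 8 the highest. Tail of set 5, the tissue of that set that stands in the third block, held 0.153%. WT-rich amplicons of the second block were also high, at 0.230% to 0.327%, beside 0.193% to 0.278% in the first block and 0.175% to 0.222% for set 12 in the fifth. The part of the block in the Other share was not tested.

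**Figure D4:**
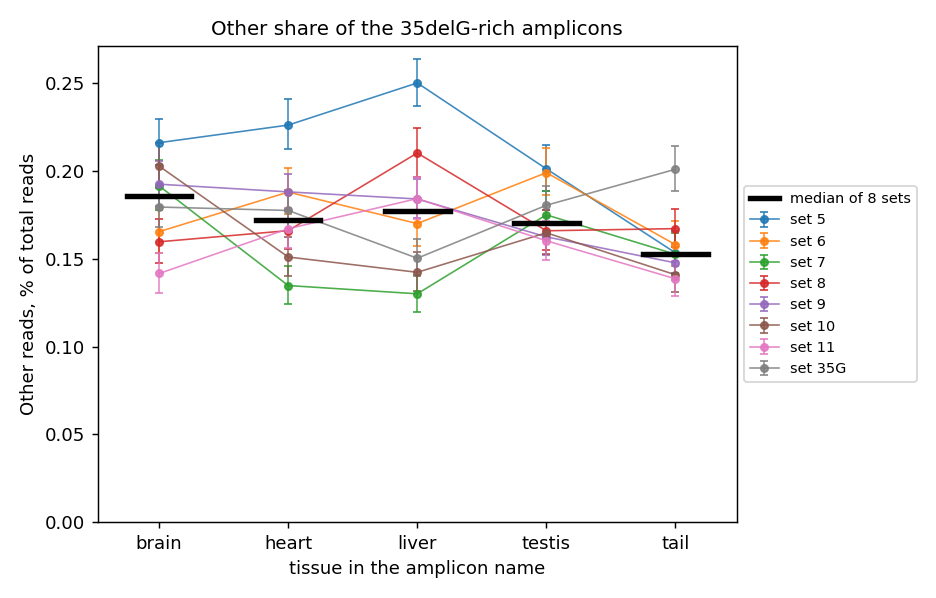
Other reads as a percent of total reads in the 40 amplicons by tissue, with a line per set, Wilson 95% intervals as error bars and black bars for the median. The medians lie between 0.153% in tail and 0.186% in brain, and set 5 is highest in brain, heart, liver and testis but not in tail.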

How the data were processed

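Target sites were amplified from tissue DNA, barcodes were ligated and the products were pooled and sequenced as 150 bp paired-end reads, per the labels' protocols. The authors deposited whole read counts per amplicon in the classes WT, 35delG and Other with their total. The sources used here do not say how reads were classed or filtered. The 3 classes added up to the total in all 65 rows, and 5 separator lines were left out. The 4 columns of reads belong to no single sample of the series, so rows were used by their own names.

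Shares are reads of a class over total reads, with Wilson 95% intervals (scipy 1.17.1). Members had a 35delG share above 0.9. Sets served as blocks in exact Friedman tests and in exact sign-flip tests of log2 shares, with Benjamini-Hochberg adjustment over 20 pairwise tests and a threshold of 0.05. P-values measure the spread between sets, which may be technical, and treat sets as independent, which no label states. Tests were checked on simulated data. Amplicons named in the text were those of set 35G, the extremes of each tissue, those above 1% WT and those nearest the threshold. Each set's values were added. The members, comparisons and alternatives were chosen with earlier results of these data known.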

Additional observations from a re-analysis of the deposited data

Results flagged for a closer look

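The WT share of brain in set 6, 5.53%, stood apart from the other 7 brain amplicons: its gap to the next, brain of set 8, was 0.821 of the whole range in percent. Among Other shares, tail of set 35G at 0.201% stood apart from the other 7 tail amplicons, with a gap of 0.542 of the range in percent. On the log2 scale the gaps were 0.419 and 0.496 of the range, both under the limit used. These were 2 of 10 groups examined with Dixon's 95% limit. For normally distributed values, chance passes that limit in about 1 group of 20. Brain WT shares in percent spanned 49-fold, so this rate need not hold for them. Outside the members, all 25 WT-rich amplicons held more 35delG reads (84 or more) than the 3 that a count of 0 allows. Testis of set 2 had the highest share, 0.601%, and was one of 4 amplicons of the first block at 0.533% to 0.601%.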

How the results depend on the processing

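The Friedman p for the WT share, 0.0999 over 8 sets, crossed 0.05 in 2 alternatives: leaving out each set in turn gave 0.0334 (without set 5) to 0.284 (without set 35G), and leaving out sets 5 and 11, which have a member beside a WT amplicon, gave 0.0265. The cause was not tested. The Friedman p for the WT share was 0.218 over the 5 sets with all tissues above 98% 35delG. That filter drops sets 6, 9 and 11 for a high WT share in brain, heart or testis. It thus selects on the measure tested, and its p is no check of stability. Without pairing by set the p was 0.132 (no replicate block, a permutation test of the Kruskal-Wallis statistic). Over the sets within 1 block, an alternative added after seeing the data, the Friedman p was 0.0731. The Friedman p for Other reads stayed above 0.05 in each alternative run. The count of tissue pairs past the threshold was 0 for both read classes with linear shares, a signed-rank statistic, a denominator of the classes compared and no pairing, and at an unadjusted p under 0.05 these held 0 to 3 pairs. It was also 0 without any 1 set. In each of those runs liver with tail had an unadjusted exact sign-flip p of 0.0156, the smallest that 7 sets can give. A single pair at that value cannot pass the adjustment, so this count of 0 says little about stability. With 5 sets (35delG above 98%, or sets within 1 block) no pair can go below an unadjusted 0.0625, and with 6 not below 0.0312, so a count of 0 there says nothing about stability. Subtracting the median minor-class level of the WT-rich amplicons, 0.263%, from the WT share only gave 0 pairs. It put 17 of 40 members at the floor of 0.001%. That level is a share of 35delG reads, and whether it holds for WT reads of the members was not tested. That median came from blocks 1, 2 and 5, and 29 members lay in other blocks, where this level was not measured. Read counts left little counting error in single shares, but the number of DNA molecules behind the reads is not given. The 8 sets limit the tests: the smallest unadjusted exact p of a pair is 0.0078.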
